A study of Homo sapiens with 14 samples.

Results

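The genes described here are 10 genes of the human pluripotency network: POU5F1, NANOG, SOX2, DPPA4, TDGF1, ZFP42, PRDM14, UTF1, SALL4 and L1TD1. They were chosen by name, and all 10 were found by their Ensembl identifiers among the 60624 gene identifiers listed in each of 14 RNA sequencing libraries. All libraries came from cells of MEL1, which is a single human embryonic stem cell line and per the methods carries a GFP reporter at the insulin gene (MEL1 INS GFP/W), so no difference below is shown in a second genetic background. The study asked how pancreatic progenitors made from stem cells can be expanded, and here the question is how far the network was reduced at each stage and which members were still listed in progenitors and β-like cells.

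The libraries fall into 9 groups by their titles. Batch 1 held 1 library each of hPSC (undifferentiated MEL1 cells kept on CF1 feeder cells), DE (endoderm at the definitive stage), PP2 (progenitors of the pancreas reached step by step from hPSC) and SC-β (the same protocol carried through, without expansion, to β-like cells). Batch 2 held 2 libraries each of ePP-P9, ePP-P21 and ePP-β. The ePP cells are expandable pancreatic progenitors, which per the methods were grown on feeder cells with EGF, bFGF, the TGFβ receptor inhibitor 616452 and I-BET151 at 1 μM, here at passage 9 or 21. The ePP-β cells are β-like cells made from ePPs, and the labels do not give the passage of those ePPs. The differentiation media in the methods list no I-BET151, so differentiation and removal of I-BET151 cannot be told apart between ePP-β and ePP. Batch 3 held 2 libraries each of DMSO and I-BET151, progenitors kept for 7 days with the solvent DMSO or with 1 μM I-BET151, which blocks the bromodomains of BET proteins. The groups hPSC, DE, PP2 and SC-β have no replicates, and nothing in the labels says that the 2 libraries of any other group came from separate cultures, so p-values measure the spread between these libraries, which may be technical.

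Pluripotent cells are held in their state by a small set of transcription factors that bind shared enhancers and promote each other's transcription as well as their own. POU5F1 (also called OCT4) and SOX2 bind side by side on DNA, and NANOG joins them at many of the same sites. Around this core stand further nuclear factors, an RNA-binding protein and a co-receptor for the growth factor NODAL. When pluripotent cells form endoderm the network is taken down, but several of its genes have other uses later: SOX2 is also a factor of the nervous system and of the anterior foregut, and SALL4 is active in many embryonic and fetal tissues. Finding POU5F1 or NANOG in cells meant for the pancreas is commonly read as a sign of undifferentiated cells.

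Levels are given in TPM, each gene's share of the transcripts of a library corrected for transcript length, so they can be compared between genes. Between 14982 and 17578 genes per library reached 1 TPM. TPM keeps no read counts, so the depth is unknown. All 37 mitochondrial genes were listed at 0 in every library, so a gene at 0 is reported only as listed at 0. Stage markers were read beside the labels. In DE 8 of 8 definitive endoderm markers reached 1 TPM, against at most 4 in any other group. In both ePP-β libraries and in SC-β 6 of 6 β cell markers did, against at most 3 in any other group. In PP2 6 of 6 pancreatic progenitor markers did, but so did 6 of 6 in SC-β, with sums of 450 and 540 TPM, so this count does not separate PP2 from SC-β. In the ePP, ePP-β, DMSO and I-BET151 libraries 5 of 6 progenitor markers reached 1 TPM, and PTF1A did not. In bulk RNA, fewer cells of a type and less RNA per cell cannot be told apart, which holds for every level below.

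Sequence from the promoters of 4 members is shown because these genes mark the patterns described below: NANOG and SOX2 are core factors, UTF1 had the most negative difference at the first step, and L1TD1 was the highest member in expanded progenitors. The sequences are the 250 bases before the start of each gene from RefSeq (build GRCh38.p14), written 5′ to 3′ on the strand of the gene. The RefSeq table matched 7 of the 10 members, with 8 windows, and POU5F1, PRDM14 and SALL4 were not among them. TDGF1 was matched under its other name, CRIPTO. Capitals mark the core of the octamer that POU factors bind (ATGCAAA) and cores bound by SOX factors (CATTGT and CTTTGT), searched on both strands. The NANOG window is chr12:7789152-7789401 (plus strand), the SOX2 window chr3:181711675-181711924 (plus strand), the UTF1 window chr10:133229967-133230216 (plus strand) and the L1TD1 window chr1:62194599-62194848 (plus strand). The RefSeq start of NANOG lies inside the longer GENCODE span of the gene given below.
NANOG: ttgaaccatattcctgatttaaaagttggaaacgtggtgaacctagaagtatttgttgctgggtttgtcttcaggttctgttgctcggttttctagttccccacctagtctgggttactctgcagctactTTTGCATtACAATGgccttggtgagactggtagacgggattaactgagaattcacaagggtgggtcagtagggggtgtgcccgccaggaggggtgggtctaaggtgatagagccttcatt
SOX2: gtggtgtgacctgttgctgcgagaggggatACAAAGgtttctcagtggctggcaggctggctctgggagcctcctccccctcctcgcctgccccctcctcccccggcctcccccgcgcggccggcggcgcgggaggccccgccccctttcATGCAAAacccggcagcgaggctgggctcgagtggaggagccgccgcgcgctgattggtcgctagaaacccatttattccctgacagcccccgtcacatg
UTF1: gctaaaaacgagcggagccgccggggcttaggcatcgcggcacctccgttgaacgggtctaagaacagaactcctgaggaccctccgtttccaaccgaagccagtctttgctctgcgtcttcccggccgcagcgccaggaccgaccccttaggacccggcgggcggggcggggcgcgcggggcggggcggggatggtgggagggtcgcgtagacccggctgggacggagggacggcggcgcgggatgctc
L1TD1: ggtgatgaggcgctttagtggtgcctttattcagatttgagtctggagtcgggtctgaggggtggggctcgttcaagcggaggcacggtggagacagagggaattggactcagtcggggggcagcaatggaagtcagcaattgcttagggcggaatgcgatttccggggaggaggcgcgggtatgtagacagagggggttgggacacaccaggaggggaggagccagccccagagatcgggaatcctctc

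In the NANOG promoter an octamer core and a SOX core lay side by side on the minus strand, 120 to 107 bases before the start and 1 base apart. This pair of CATTGT, any 1 base and ATGCAAA was found in 2 of 35116 promoter windows of the same length (0.0057%), those of NANOG and NRARP. The SOX2 window held the octamer core ATGCAAA on the plus strand, 100 to 94 bases before the start, and CTTTGT on the minus strand, 220 to 215 bases before it. The first was found in 3.94% of all windows and the second in 13.7%. CATTGT was found in 9.29% of windows, among them the second window of TDGF1. No core was found in the windows of UTF1, L1TD1, DPPA4 and ZFP42, which says only that these letters are not in the 250 bases. The windows differed in base composition as well: UTF1 had 70.8% G or C with 32 CpG dinucleotides, whereas NANOG had 47.6% with 4, against a median of 58% over all windows.

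In the hPSC library all 10 members were listed at high levels, from 50.3 to 3401 TPM. POU5F1 (ENSG00000204531, chr6:31164337-31180731, minus strand) was at 3401 TPM and alone made up most of the 5376 TPM that the members summed to. The other core factors were SOX2 (ENSG00000181449, chr3:181711925-181714436, plus strand), at 310.05 TPM, and NANOG (ENSG00000111704, chr12:7787794-7799146, plus strand), at 52.8 TPM. Of the other nuclear factors, UTF1 (ENSG00000171794, chr10:133230217-133231558, plus strand), a chromatin-bound cofactor, was at 382 TPM. ZFP42 (ENSG00000179059, chr4:187995771-188005046, plus strand), the zinc finger protein also called REX1, was at 70.4 TPM. SALL4 (ENSG00000101115, chr20:51782331-51802521, minus strand), a zinc finger factor that binds with POU5F1, was at 61.5 TPM. PRDM14 (ENSG00000147596, on chromosome 8), which represses genes of differentiation, was the lowest at 50.3 TPM. The remaining members are not classical transcription factors. TDGF1 (ENSG00000241186, chr3:46574534-46582457, plus strand), the cell surface co-receptor for NODAL, was at 468 TPM. DPPA4 (ENSG00000121570, chr3:109326144-109337546, minus strand), a chromatin protein, was at 395 TPM, and L1TD1 (ENSG00000240563, chr1:62194849-62212328, plus strand), an RNA-binding protein derived from a LINE retrotransposon, was at 185 TPM. All these genes are protein-coding, with positions from GENCODE on GRCh38.

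**Figure D1:**
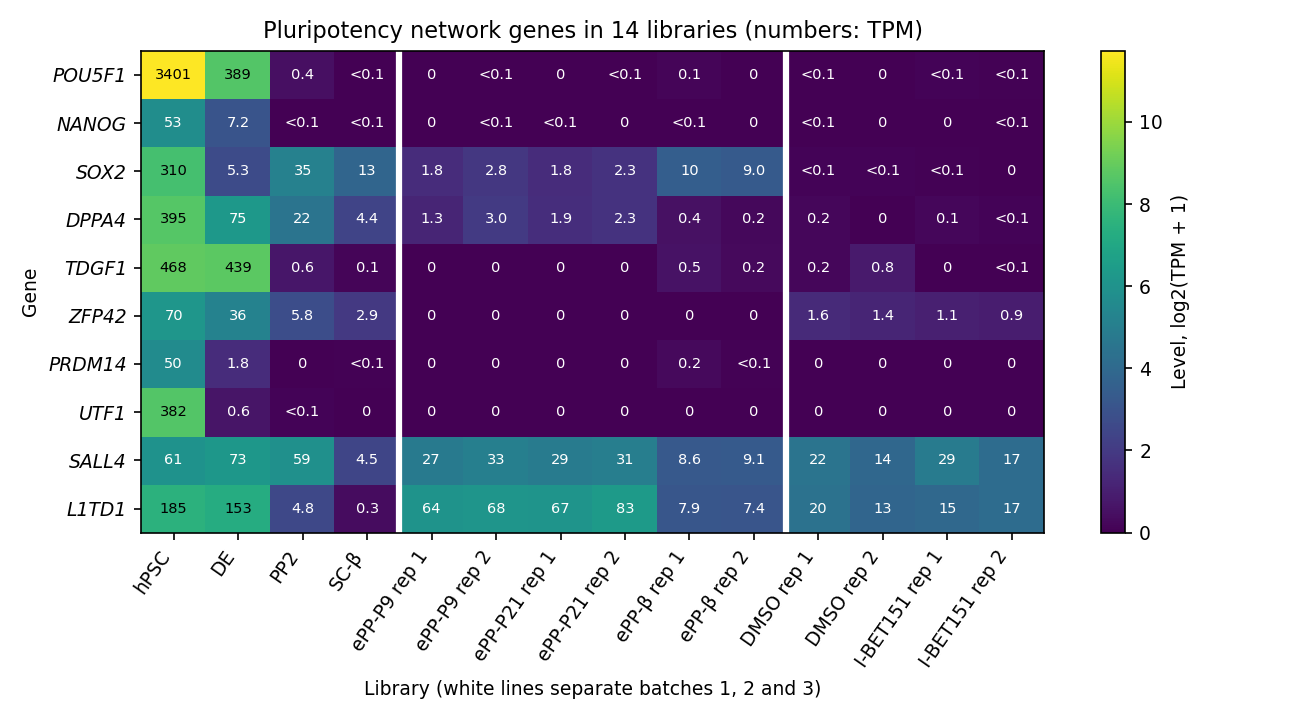
Level of each of the 10 genes (rows) in each of the 14 libraries (columns), coloured by log2(TPM + 1) with the TPM printed in each cell; white lines separate the 3 batches. The hPSC column is high in every row, POU5F1, NANOG, PRDM14 and UTF1 are at or near 0 from PP2 onward, and SALL4 is above 4 TPM in all 14 libraries.

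The step from hPSC to DE split the network. POU5F1 went from 3401 to 389 TPM, which is 8.75-fold lower, and NANOG from 52.8 to 7.21 TPM. SOX2 went from 310.05 to 5.32 TPM, PRDM14 from 50.3 to 1.82 TPM and UTF1 from 382 to 0.587 TPM, and DPPA4 went from 395 to 74.8 TPM. The other 4 members differed by less than 1 on the log2(TPM + 1) scale. TDGF1 was at 468 and 439 TPM, L1TD1 at 185 and 153 TPM, and SALL4 at 61.5 and 73.3 TPM, while ZFP42 was at 70.4 and 36.4 TPM. On the log2(TPM + 1) scale, 6 of the 10 members were lower in DE by more than 1 and 0 were higher by more than 1, where 16.1% of the 17807 genes at 1 TPM or more in either library were lower by more than 1. The median difference of the members was -2.55 and that of all these genes was -0.04. UTF1 had the most negative difference (-7.91), followed by SOX2 (-5.62), PRDM14 (-4.19), POU5F1 (-3.13), NANOG (-2.71) and DPPA4 (-2.39). UTF1 met the filter only through hPSC, so it could be counted only as lower. With 1 library per stage these differences have no replicate check and no test.

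TDGF1 is a co-receptor of NODAL signalling, so genes of that pathway are given beside it. The ligand gene NODAL was at 93.6 TPM in hPSC and at 200.4 TPM in DE, and LEFTY1, a target and inhibitor of the pathway, was at 474 and 997 TPM. FGF2 was at 33.2 and 5.52 TPM, FGF4 at 6.46 and 1.40 TPM and GDF3 at 17.4 and 8.93 TPM, so the list did not move as a unit. All 11 listed genes of NODAL and FGF signalling reached 1 TPM in both libraries.

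From DE to PP2 the core factors parted: POU5F1 and NANOG were under 1 TPM in PP2 and SOX2 was not. POU5F1 went from 389 to 0.389 TPM, which made it 8750.5-fold lower in PP2 than in hPSC, and NANOG from 7.21 to 0.0217 TPM. TDGF1 went from 439 to 0.622 TPM and L1TD1 from 153 to 4.78 TPM. DPPA4 was at 22.0 TPM in PP2, ZFP42 at 5.84 TPM and UTF1 at 0.0989 TPM, and PRDM14 was listed at 0. SALL4 was at 58.7 TPM, which is 95.5% of its hPSC level. SOX2 ran the other way, from 5.32 TPM in DE to 35.1 TPM in PP2. Among the 9 members at 1 TPM or more in either library, 7 were lower by more than 1 on the log2(TPM + 1) scale (9.83% of the 18578 genes that met the same filter were) and SOX2 was the only member higher by more than 1. POU5F1, NANOG, TDGF1 and PRDM14 met the filter only through DE, so they could be counted only as lower. The median difference of the 9 members was -2.45, and the median of all genes was itself shifted by 0.38. With each library centred on its median, SOX2 differed by 2.03 in place of 2.51 and the same counts of 7 and 1 were found, whereas the counts over all genes went from 1826 lower and 5053 higher to 3379 lower and 2749 higher.

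In SC-β the members summed to 25.3 TPM, against 128 TPM in PP2. SOX2 was at 13.0 TPM, SALL4 at 4.50 TPM, DPPA4 at 4.37 TPM and ZFP42 at 2.91 TPM. L1TD1 was at 0.315 TPM and TDGF1 at 0.131 TPM. PRDM14, NANOG and POU5F1 were at 0.0411, 0.0281 and 0.00092 TPM, and UTF1 was listed at 0. Of the 5 members at 1 TPM or more in either library, 4 were lower in SC-β than in PP2 by more than 1 on the log2(TPM + 1) scale (SALL4 by -3.44, L1TD1 by -2.13, DPPA4 by -2.10 and SOX2 by -1.37), where 22.1% of 18894 genes were. L1TD1 met the filter only through PP2, so it could be counted only as lower. The median difference of the 5 members was -2.10. After centring on the median of all genes, which was shifted by -0.37, SOX2 differed by -0.99 and 3 members remained past 1, and the counts over all genes went from 4182 lower and 2401 higher to 2324 lower and 3444 higher. Genes of fibroblasts moved with these libraries too: 8 of 8 fibroblast markers reached 1 TPM in PP2 and in SC-β, with a summed level of 1527 and 2770 TPM against 563 TPM in hPSC and 47.0 TPM in DE, and none of them was listed at 0 in PP2 or SC-β. Their part in the SOX2, SALL4, DPPA4 and ZFP42 levels was not tested.

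**Figure D2:**
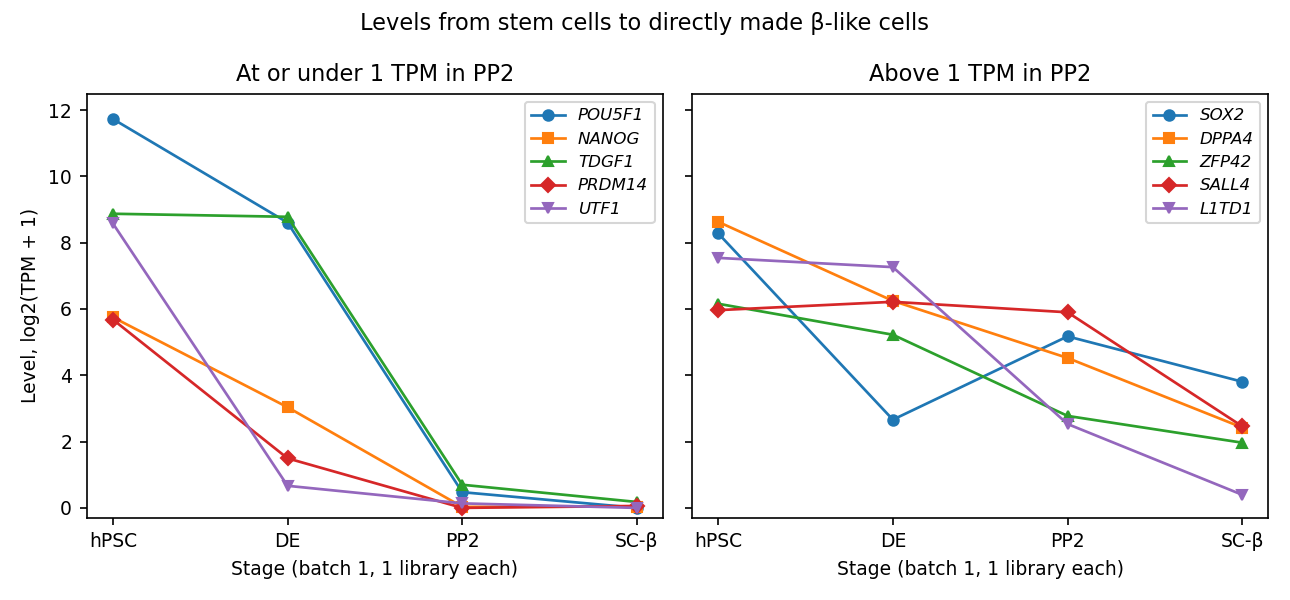
Level on the log2(TPM + 1) scale (vertical axis) of the 10 genes at the 4 stages of batch 1 (horizontal axis), 1 library per stage, so there are no error bars. The left panel holds the 5 genes at or under 1 TPM in PP2 and the right panel the 5 above it; TDGF1 is at 468 and 439 TPM in hPSC and DE and at 0.622 TPM in PP2, and SOX2 is at 5.32 TPM in DE and at 35.1 TPM in PP2.

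Cells that had been expanded for 9 or 21 passages were next. POU5F1 was listed at 0 in replicate 1 of both passages and was at 0.0188 TPM in ePP-P9 replicate 2 and 0.0256 TPM in ePP-P21 replicate 2. NANOG was at 0.0106 TPM in ePP-P9 replicate 2 and 0.0313 TPM in ePP-P21 replicate 1, and was listed at 0 in the other 2 libraries. TDGF1, ZFP42, PRDM14 and UTF1 were listed at 0 in all 4 ePP libraries. So 6 of the 10 members, the founding factors POU5F1 and NANOG among them, gave no value above 0.0313 TPM after expansion.

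The other 4 members were listed above 1 TPM in all 4 ePP libraries. L1TD1 gave 63.7 and 68.2 TPM at passage 9, against 67.0 and 83.0 TPM at passage 21, which is 34.4% to 44.8% of its level in hPSC. SALL4 gave 26.5 and 32.6 TPM, against 28.7 and 31.3 TPM. SOX2 gave 1.79 and 2.78 TPM, against 1.85 and 2.32 TPM, and DPPA4 gave 1.29 and 2.99 TPM, against 1.90 and 2.33 TPM. The ranges of the 2 passages overlapped for SALL4, SOX2, DPPA4 and L1TD1. The L1TD1 level in PP2, which is the directly made counterpart, was 4.78 TPM, whereas SOX2 (35.1 TPM) and DPPA4 (22.0 TPM) were above every ePP library there. PP2 is in another batch and has 1 library, so the batch and the kind of progenitor cannot be told apart in this contrast.

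The passages were compared with limma, which fits a linear model to log2(TPM + 1) for every gene at 1 TPM or more in at least 2 of the 4 libraries and shares the estimate of spread across genes. A gene was called at a Benjamini-Hochberg adjusted p under 0.05 over all genes tested and a log2 fold change beyond 1 in size. Of the 4 members tested 0 were called, and 0 had an unadjusted p under 0.05, where 1.13% of 15822 genes were called (169 higher and 9 lower in ePP-P21). The log2 fold changes, ePP-P21 over ePP-P9, were 0.18 (SE 0.13, limma adjusted p = 0.463) for L1TD1, 0.04 (SE 0.33, adjusted p = 0.958) for DPPA4, 0.03 (SE 0.14, adjusted p = 0.929) for SALL4 and -0.08 (SE 0.26, adjusted p = 0.886) for SOX2. The median over all genes was 0.13, and relative to it DPPA4 and SALL4 had negative values: with each library centred on its median their log2 fold changes were -0.17 and -0.18, and 0 genes were called. Under quantile normalization the counts were 10 higher and 3 lower.

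In ePP-β the 4 members that were above 1 TPM in every ePP library took different directions. SOX2 gave 10.4 and 9.03 TPM in ePP-β against 1.79 to 2.78 TPM in the 4 ePP libraries. SALL4 was at 8.64 and 9.11 TPM against 26.5 to 32.6 TPM. L1TD1 was at 7.93 and 7.43 TPM against 63.7 to 83.0 TPM, and DPPA4 was at 0.428 and 0.196 TPM against 1.29 to 2.99 TPM. The ePP-β and ePP libraries did not overlap for SOX2, SALL4, L1TD1 or DPPA4. The share of all genes without overlap was not counted, and 11251 of the 18076 genes tested had an unadjusted limma p under 0.05. The ePP level in the test was the mean of the 2 passages, and 4 of 4 members tested were called, 1 higher and 3 lower. That count leaves out the 6 members under the filter, and DPPA4 entered it only through the ePP libraries, where it was higher. Over all 18076 genes tested, 17.9% were called higher and 9.86% lower in ePP-β. SOX2 rose with a log2 fold change of 1.75 (SE 0.19, limma adjusted p = 0.000604). L1TD1 fell by 3.04 on the log2 scale (SE 0.11, limma adjusted p = 1.3e-05). SALL4 fell by 1.64 (SE 0.12, adjusted p = 0.000118) and DPPA4 fell by 1.23 (SE 0.26, adjusted p = 0.00791).

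The DPPA4 call is the least firm of the 4. DPPA4 passed the filter on low values only through the ePP libraries, and without ePP-β replicate 2 its log2 fold change was -1.10 with a limma adjusted p of 0.061. The split of all calls moved with the scaling, from 3237 higher and 1783 lower to 2592 higher and 2866 lower under quantile normalization, and the directions of SOX2, SALL4, L1TD1 and DPPA4 were the same under every scaling run.

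The members at or near 0 in ePP gave low values in ePP-β. TDGF1 was at 0.471 and 0.229 TPM and PRDM14 at 0.214 and 0.0382 TPM, where both were listed at 0 in the 4 ePP libraries. POU5F1 was at 0.12 TPM in replicate 1 and listed at 0 in replicate 2, and NANOG was at 0.00598 TPM and listed at 0. ZFP42 and UTF1 were listed at 0 in both. These 6 members did not pass the filter. In a fit without the filter 0 of them were called, and TDGF1 had a log2 fold change of 0.43 with a limma adjusted p of 0.0271. That p rests on 2 values under 1 TPM against listed zeros, which have no spread. LRRC2 and ENSG00000283877, which overlap TDGF1, were also listed at 0 in the ePP libraries. In ePP-β they gave 0.41 and 0.195 TPM, and 0.26 and 0.122 TPM, and their part in the TDGF1 values was not tested.

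Markers of other tissues that use SOX2 are given beside it. The 8 neural markers summed to 128 and 146 TPM in the ePP-β libraries and to 63.3 to 75.0 TPM in the ePP libraries, with 5 and 3 of them at 1 TPM or more in every library of the group. Among them PAX6, which is a factor of islet endocrine cells as well, gave 64.9 and 87.8 TPM in ePP-β, against at most 0.01 TPM in ePP. Without PAX6 the other 7 neural markers summed to 62.7 and 57.7 TPM in ePP-β and to 63.3 to 75.0 TPM in ePP. The 8 foregut and stomach markers summed to 86.1 and 115 TPM in ePP-β and to 8.40 to 17.4 TPM in ePP, with 4 and 3 of them at 1 TPM or more, and GKN1 was listed at 0 in ePP-β. TFF1 held most of the ePP-β sums, at 59.7 and 82.6 TPM. Their part in the SOX2 result was not tested. SC-β, made without the expansion step and sequenced in batch 1, had SOX2 at 13.0 TPM with neural and foregut and stomach sums of 111 and 97.7 TPM.

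**Figure D3:**
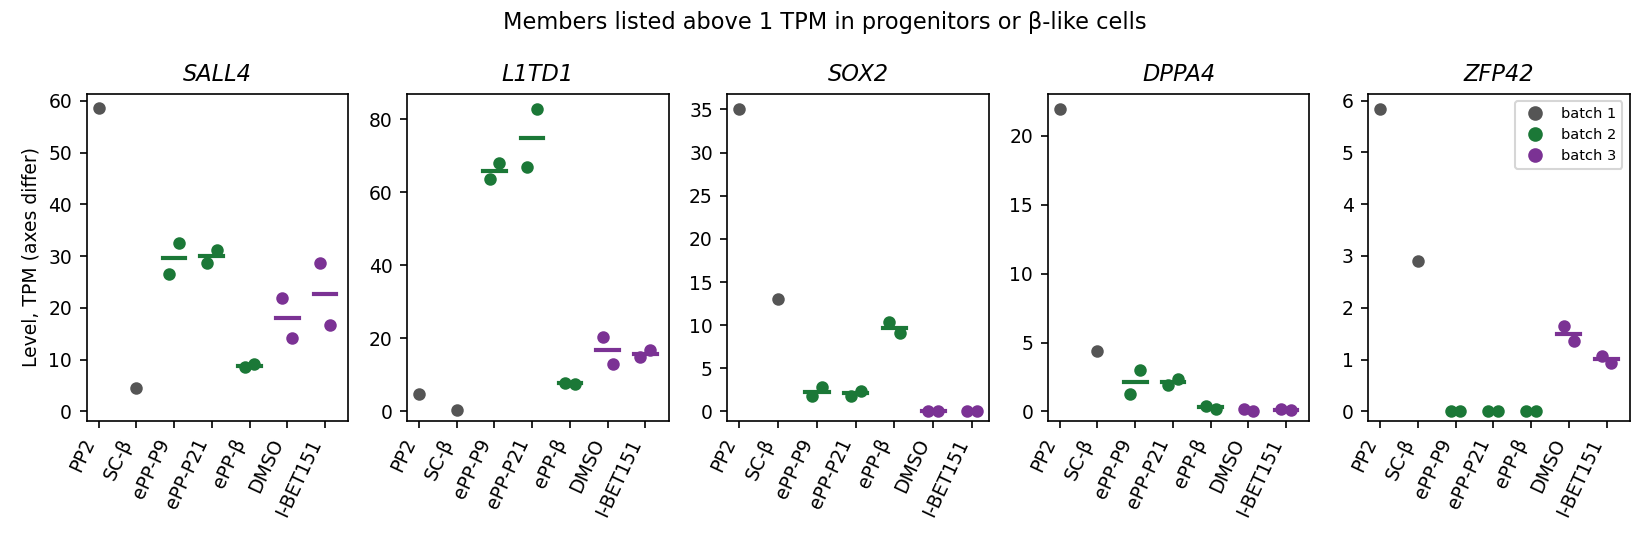
TPM (vertical axis, which differs between panels) of SALL4, L1TD1, SOX2, DPPA4 and ZFP42 in the progenitor and β-like groups (horizontal axis). Each point is 1 library, coloured by batch, and the short lines are means of 2 libraries where neither is at 0; L1TD1 peaks in the ePP groups at 63.7 to 83.0 TPM, SOX2 is higher in ePP-β than in ePP, and ZFP42 is listed at 0 throughout batch 2.

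The progenitors of batch 3 showed which members were listed after 7 days with or without the BET inhibitor. For SALL4 the DMSO libraries gave 21.9 and 14.2 TPM and the I-BET151 libraries 28.7 and 16.6 TPM. For L1TD1 they gave 20.3 and 13.1 TPM, and 14.8 and 16.9 TPM. The DMSO and I-BET151 libraries overlapped for SALL4 and L1TD1. ZFP42 gave 1.65 and 1.36 TPM with the solvent, against 1.07 and 0.941 TPM with the inhibitor, so both DMSO libraries were above both I-BET151 libraries. How many of all genes separate the 2 groups in this way was not counted.

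The other members were under 1 TPM throughout batch 3. SOX2 gave 0.0898 and 0.09 TPM in DMSO, and 0.0403 TPM and a listed 0 in I-BET151. TDGF1 gave 0.151 and 0.792 TPM in DMSO, and a listed 0 and 0.0189 TPM in I-BET151. DPPA4 was at 0.153 TPM and listed at 0 in DMSO and was at 0.142 and 0.086 TPM in I-BET151. POU5F1 was at 0.0182 TPM and listed at 0 in DMSO and was at 0.0971 and 0.0409 TPM in I-BET151. NANOG stayed at or under 0.00387 TPM, and PRDM14 and UTF1 were listed at 0 in all 4 libraries.

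Of the 3 members tested between I-BET151 and DMSO 0 were called, and 0 had an unadjusted p under 0.05, where 0.21% of 16687 genes were called. The log2 fold change, I-BET151 over DMSO, was 0.30 (SE 0.42, limma adjusted p = 0.79) for SALL4, -0.04 (SE 0.35, adjusted p = 0.969) for L1TD1 and -0.32 (SE 0.28, adjusted p = 0.647) for ZFP42. The median over all genes was 0.16. Without the filter 8 members could be tested and 0 were called, with SOX2 at an unadjusted limma p of 0.0333 and an adjusted p of 0.369. The count over all genes depended on the fit. With the filter and the replicate number as a block, 2294 genes were called and still 0 of the 3 members. The differences between replicates 2 and 1 correlated across genes at r = 0.675 between DMSO and I-BET151. With 2 libraries per group, a member that was not called is not shown to be unchanged. Of the 8 foregut and stomach markers, TFF1 (277 and 176 TPM in DMSO against 6.89 and 4.59 TPM in I-BET151) and TFF2 (234 and 132 TPM against 1.91 and 1.44 TPM) carried the difference in their sums, and the other 6 were under 1 TPM in all 4 libraries, as was SOX2.

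**Figure D4:**
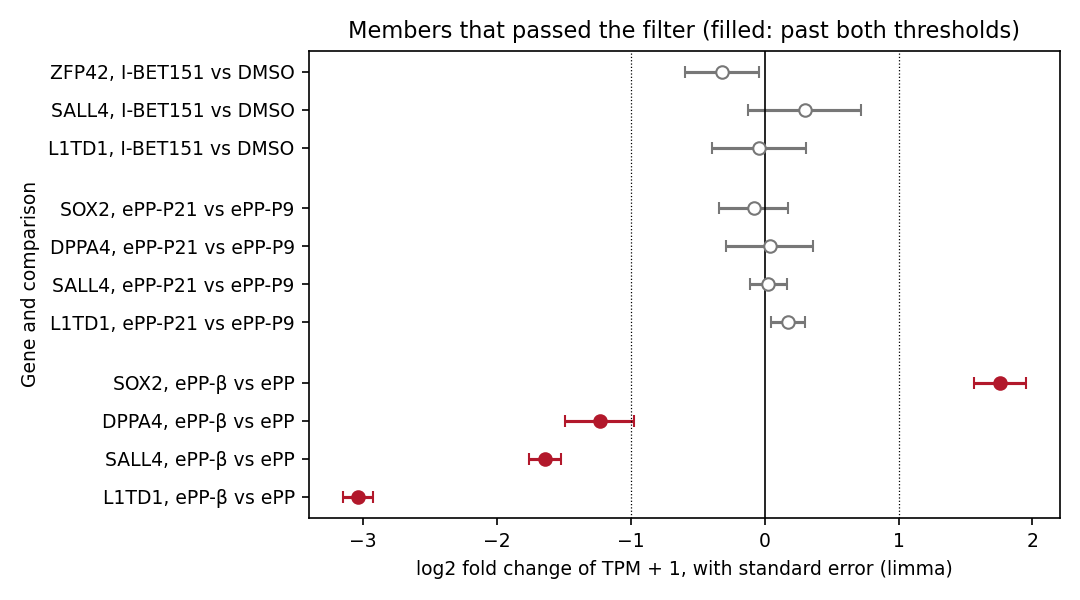
log2 fold change of TPM + 1 (horizontal axis) with its standard error from limma for the members that passed the filter in each of the 3 tested comparisons (vertical axis), with dotted lines at 1 and -1. Filled points passed both thresholds: in ePP-β SOX2 lies at 1.75 and DPPA4, SALL4 and L1TD1 lie between -1.23 and -3.04, whereas every open point lies within 0.32 of 0.

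Residual expression was then counted as 1 TPM or more in every library of a group. In PP2 this held for 5 of the 10 members (SOX2, DPPA4, ZFP42, SALL4 and L1TD1), whereas it held for 98.7% of the 2972 genes that were at 50 TPM or more in hPSC, the floor that all 10 members met. In the 4 ePP libraries it held for 4 members (SOX2, DPPA4, SALL4 and L1TD1) and for 96.4% of those genes. In DMSO it held for 3 members (ZFP42, SALL4 and L1TD1) against 97.5%, and in I-BET151 for 2 members (SALL4 and L1TD1) against 97.2%. In ePP-β it held for 3 members (SOX2, SALL4 and L1TD1) against 97.5%, and in SC-β for 4 members (SOX2, DPPA4, ZFP42 and SALL4) against 98.4%. SALL4 met the threshold in every group. The ZFP42 count in I-BET151 turned on a value of 0.941 TPM, and at a threshold of 2 TPM SOX2 and DPPA4 no longer met it in ePP.

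As a share of the hPSC level, the median member was at 16.3% in DE, 1.36% in PP2, 0.0101% over the 4 ePP libraries, 0.0769% in ePP-β and 0.126% in SC-β. In DMSO the median was 0.0242% and in I-BET151 0.0051%. The PP2 median lay between TDGF1 at 0.133% (0.622 TPM) and L1TD1 at 2.58% (4.78 TPM), so it falls in a wide gap. Apart from DE and PP2, both members next to each median were under 1 TPM at unknown depth, so the order of these small shares was not read. The 2972 genes at 50 TPM or more in hPSC had medians from 67.0% to 95.3% of their hPSC level in these groups. SALL4 was the highest member by this share in every group, at 119% in DE, 95.5% in PP2, 48.5% over the ePP libraries, 29.3% in DMSO, 36.9% in I-BET151, 14.4% in ePP-β and 7.32% in SC-β. The hPSC library is in batch 1, so these shares in batches 2 and 3 also span a difference of batch.

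The order of the groups was different for SALL4, L1TD1 and SOX2, which reached 1 TPM in every ePP and ePP-β library. SALL4 was highest in DE (73.3 TPM), then hPSC (61.5 TPM) and PP2 (58.7 TPM), followed by ePP-P21 (30.0 ± 1.79 TPM, SD, n = 2), ePP-P9 (29.6 ± 4.28 TPM), I-BET151 (22.7 ± 8.57 TPM), DMSO (18.0 ± 5.45 TPM), ePP-β (8.87 ± 0.33 TPM) and SC-β (4.50 TPM). L1TD1 was highest in hPSC (185 TPM) and DE (153 TPM), followed by ePP-P21 (75.0 ± 11.3 TPM), ePP-P9 (65.9 ± 3.2 TPM), DMSO (16.7 ± 5.1 TPM), I-BET151 (15.9 ± 1.46 TPM), ePP-β (7.68 ± 0.35 TPM), PP2 (4.78 TPM) and SC-β (0.315 TPM). SOX2 was highest in hPSC (310.05 TPM), then PP2 (35.1 TPM), SC-β (13.0 TPM), ePP-β (9.69 ± 0.93 TPM), DE (5.32 TPM), ePP-P9 (2.29 ± 0.70 TPM) and ePP-P21 (2.09 ± 0.34 TPM), with the DMSO and I-BET151 libraries last. For all 3 genes the neighbours ePP-P9 and ePP-P21 did not differ beyond their spread, nor did DMSO and I-BET151 for SALL4 and L1TD1.

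Across the 9 group means of log2(TPM + 1) (groups of 1 batch share that batch), POU5F1 ran most closely with NANOG (r = 0.986) and TDGF1 (r = 0.985). Its r was 0.916 with ZFP42, 0.914 with PRDM14, 0.898 with DPPA4 and 0.826 with UTF1. It was lowest with those 3 genes: 0.657 with L1TD1, 0.640 with SOX2 and 0.612 with SALL4. L1TD1 and SOX2 had an r of 0.0978. These are descriptions over 9 points in which hPSC and DE carry most of the range.

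By the same measure, the protein-coding genes most like POU5F1, among genes at 10 TPM or more in at least 1 group, were SCGB3A2 (r = 0.999), ZSCAN10 (0.999), PDE6G (0.998), VENTX (0.997) and C13orf42 (0.994). ZSCAN10, a zinc finger factor of embryonic stem cells, was at 200.3 TPM in hPSC and 38.3 TPM in DE and at or under 0.382 TPM on average in every later group. The genes most like SOX2 were FHDC1 (0.950), RND2 (0.947), ZXDB (0.945), GSPT2 (0.937) and COL22A1 (0.936). Those most like SALL4 were KIF14 (0.981), a kinesin of cell division, ENSG00000285920 (0.980), PPIH (0.977), LMNB1 (0.977), which encodes lamin B1 of the nuclear envelope, and MPRIP (0.977).

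Some of these levels rest on genes with near copies elsewhere, between which reads can be split. NANOG has 11 annotated copies, and in hPSC NANOGP8 was listed at 58.6 TPM and NANOGP1 at 20.9 TPM, so that the copies held 60.1% of the 132 TPM that NANOG and its copies summed to. The NANOG level of 52.8 TPM is uncertain for this reason. The sum of NANOG and its copies was 15.4 TPM in DE, a log2 difference of -3.02 against -2.71 for NANOG alone, and the copies summed to at most 0.821 TPM in any later library. The copies of POU5F1 held 2.17% of the summed level in hPSC, with POU5F1P3 at 47.3 TPM and POU5F1P4 at 24.5 TPM. TDGF1P3, a copy of TDGF1, was at 15.1 TPM in hPSC and 53.4 TPM in DE, so TDGF1 with its copies was at 483 and 493 TPM in these libraries, a log2 difference of 0.03 in place of -0.09.

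Overlapping genes matter as well, since the use of strand in the counting is not given in the sources used here. ENSG00000283877, which overlaps the 3′ part of TDGF1 on the same strand, was at 119.9 TPM in hPSC and 120.3 TPM in DE and at or under 0.435 TPM in every other library. TCF19, on the strand opposite to POU5F1, was between 2.36 and 17.4 TPM in all libraries, at levels that did not follow those of POU5F1. SOX2 lies inside the long noncoding gene SOX2-OT on the same strand, which was at 2.44 TPM in hPSC and at or under 0.495 TPM in the others. A Y_RNA gene inside L1TD1 on the same strand ranged from 0.253 TPM in SC-β to 37.7 TPM in DE and was between 21.4 and 33.7 TPM in the ePP libraries, where L1TD1 was high too.

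The wider network was followed through 58 further genes in 3 lists. Of 35 partners of the primed state, in which human stem cells are usually cultured, 34 reached 1 TPM in hPSC, 33 in DE, 23 in PP2, 19 in all 4 ePP libraries, 21 in ePP-β, 22 in SC-β, 19 in DMSO and 18 in I-BET151. The 5 highest in hPSC were DNMT3B (568 TPM), a DNA methyltransferase, PODXL (509 TPM), a surface sialomucin, LIN28A (460 TPM), an RNA-binding protein that blocks let-7 maturation, ESRG (392 TPM), a noncoding RNA, and CD9 (385 TPM), a tetraspanin. ESRG followed the pattern of POU5F1, with 15.5 TPM in DE, 0.03 TPM in PP2 and a listed value of 0 in all later libraries. LIN28A was at 276 TPM in PP2, 59.1 to 67.7 TPM in the ePP libraries and 50.3 to 172 TPM in batch 3, and at 13.97 and 12.2 TPM in ePP-β and 11.7 TPM in SC-β. DNMT3B was between 5.20 and 6.32 TPM in the ePP libraries.

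In the fit without the replicate number, no gene of the 3 lists was called between I-BET151 and DMSO, where 21, 8 and 6 genes of the primed, NODAL and FGF, and naive lists were tested with limma and 3, 2 and 2 of them had an unadjusted p under 0.05. This null depended on the fit. With the replicate number as a block, 2 primed partners were called higher and 1 lower, and 2 NODAL and FGF genes and 2 naive genes were called lower. Of all 16687 genes tested, that fit called 828 higher and 1466 lower. Without the block, 0 of 21, 7 and 4 genes were called between ePP-P21 and ePP-P9, with 2, 2 and 1 at an unadjusted limma p under 0.05. In ePP-β against ePP, 4 of 22 primed partners tested were higher and 7 lower, 1 of 7 NODAL and FGF genes was higher and 2 were lower, and 0 of 4 naive genes were higher and 1 was lower, where 17.9% of all genes tested were higher and 9.86% lower. The share of primed partners called higher was near that background. The median log2 fold changes of the lists were -0.54, -0.35 and -0.78, beside -0.03 over all genes. Among the genes that fell with SALL4, L1TD1 and DPPA4 were KLF5 (log2 fold change -2.80), LIN28A (-2.19), NR6A1 (-1.94), TRIM71 (-1.79) and DNMT3B (-1.50), with limma adjusted p between 1.16e-05 and 0.000803. LIN28A, TRIM71 and NR6A1 are genes of early development, and let-7 microRNAs are known to target the first 2 of them. Among those that rose with SOX2 were PIPOX (2.75), LEFTY1 (2.12), CD9 (1.71) and MYCN (1.25), with limma adjusted p between 3.09e-05 and 0.0114. PIPOX passed the filter only through ePP-β, at 2.13 and 16.0 TPM there against at most 0.12 TPM in ePP. It could therefore be called in that direction only, and its 2 ePP-β values lie far apart.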

How the data were processed

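RNA from 14 libraries of MEL1 cells was analysed. Per the labels, total RNA was taken with a column kit and libraries were made with the NEBNext Ultra kit. The authors aligned reads to GRCh38 (HISAT2 2.1.0 in the submitters' processing notes), and the deposited values are TPM per Ensembl gene identifier. No scaling between libraries, annotation release or strand setting is given in the sources used here. Symbols and positions came from GENCODE 44, which matched 60370 of 60624 identifiers. Sums of TPM over the listed genes were 908685 to 985497, and depth is unknown, so no counting interval is given and precision rests on 2 libraries per group.

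Groups came from the titles. Genes at 1 TPM or more in at least 2 libraries of a fit were tested on log2(TPM + 1), a scale that understates changes of low genes, with limma 3.58.1 in R 4.3.3 (two-sided, intensity trend, Benjamini-Hochberg over all genes tested, called at an adjusted p under 0.05 and a log2 fold change beyond 1). Each fit stayed within 1 batch. The study used a test for counts, which TPM values do not allow. Stages with 1 library were compared with no test. The code was tested on simulated data with known changes. ± is the SD.

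All 10 members are given whatever their values. Of the other network genes, up to 5 per direction and the 5 highest in hPSC per list were named where a list is described, and some results are not reported here. Also named were copies and overlapping genes, and the 5 genes most correlated with POU5F1, SOX2 and SALL4. The members and lists were chosen with earlier results of these data known. Alternatives were a pseudocount of 0.1, no filter or a filter of 5 TPM, median centring, quantile normalization, the replicate number as a block, leaving out each replicate, and thresholds of 0.5 and 2 TPM. Adding the copies of a member was chosen after seeing the data.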

Additional observations from a re-analysis of the deposited data

How the results depend on the processing

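The member counts kept their side of the thresholds under nearly all alternatives: 0 members were called in I-BET151 against DMSO and in ePP-P21 against ePP-P9 under every setting run, and 3 or 4 members in ePP-β against ePP (3 under the filter of 5 TPM, which DPPA4 did not pass, and 3 without ePP-β replicate 2). In the ePP libraries 2 members in place of 4 met a threshold of 2 TPM. Members lower by more than 1 stayed at 6 for DE against hPSC and 7 for PP2 against DE under all 3 alternatives run, and were 3 or 4 for SC-β against PP2. The calls over all genes moved far more, and the causes were not tested. For I-BET151 against DMSO, 35 genes became 0 with a pseudocount of 0.1 (2462 at an unadjusted limma p under 0.05), 0 with no filter (4535), 120 with median centring and 138 with quantile normalization, and with 1 library left out became 107 (without DMSO replicate 1), 268 (DMSO replicate 2), 667 (I-BET151 replicate 1) and 1034 (I-BET151 replicate 2), where the lone library of a group is assumed to vary like the other group. For ePP-P21 against ePP-P9, 178 genes became 0 with no filter (4677 at an unadjusted limma p under 0.05), 0 with median centring (4176) and 13 with quantile normalization. When 1 library was left out the count lay between 0 (without ePP-P21 replicate 1, with 3664 at an unadjusted limma p under 0.05) and 478 (without ePP-P9 replicate 2), and was 2 without ePP-P21 replicate 2. The count for ePP-β against ePP lay between 3466 and 5066 when 1 library was left out.

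Some members that were not called changed sign. For ePP-P21 against ePP-P9, median centring gave log2 fold changes of -0.18 for SALL4, -0.17 for DPPA4 and -0.030 for L1TD1, and quantile normalization gave -0.13 for SALL4 and -0.21 for DPPA4. With 1 library left out, SALL4 ranged from -0.12 to 0.17, DPPA4 from -0.36 to 0.44 and SOX2 from -0.30 to 0.14. For I-BET151 against DMSO, SALL4 ranged from -0.079 to 0.68 and L1TD1 from -0.34 to 0.26.

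The libraries share only a replicate number. The differences between replicates 2 and 1 correlated across genes at r = 0.675 between DMSO and I-BET151 and at -0.0093 between ePP-P9 and ePP-P21. With the replicate block 2294 genes were called for I-BET151 against DMSO, 66 for ePP-P21 against ePP-P9 and 5032 for ePP-β against ePP, and members called were 0, 0 and 4. Of the other network genes, 0 of which were called without the block, the block called 7 in I-BET151 against DMSO: CD9 (-2.55), KLF4 (-2.03), LEFTY1 (-2.01), LEFTY2 (-1.74) and DNMT3L (-1.54) were lower, and SMARCA4 (1.62) and NR6A1 (1.31) were higher. Depth limits what can be said of members listed at 0, since TPM gives no counts.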

Other observations

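Genes of the naive state, an earlier form of pluripotency, had low levels in hPSC, where 7 of 12 reached 1 TPM and the 12 summed to 22.4 TPM. DPPA3 and DPPA5 were at 1.27 and 3.11 TPM in hPSC and were listed at 0 in the other 13 libraries. The list summed higher in the ePP libraries (201 to 277 TPM), mostly through KLF5, a factor of many epithelia, which was at 6.34 TPM in hPSC and at 165 to 233 TPM in ePP. NR5A2, a nuclear receptor of pancreas and liver as well as of the early embryo, was at 0.816 TPM in hPSC and at 16.9 to 23.3 TPM in ePP. These genes were chosen for mention after their values were seen, and the sums span different batches.

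Germ cells share SALL4, PRDM14, DPPA4 and L1TD1 with pluripotent cells, so germ cell markers were read beside them. In the 4 ePP libraries 0 of 8 germ cell markers reached 1 TPM in every library, and NANOS3, DDX4, DAZL and TFAP2C were listed at 0. DDX4 was listed at 0 in hPSC as well. PRDM1 reached 1.06 TPM in ePP-P9 replicate 2 and 1.28 TPM in ePP-P21 replicate 1. The summed level of the 8 markers was 28.9 TPM in hPSC, where TFAP2C alone was at 23.8 TPM. The sum was 0.201 to 1.88 TPM in ePP, 1.68 and 2.16 TPM in ePP-β and 6.26 TPM in SC-β, where TFAP2C alone was at 5.74 TPM.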
